A study of Homo sapiens with 12 samples.

Results

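Translation initiation and elongation factors are the proteins that bring ribosomes to mRNA, select the start codon and drive the ribosome along the coding sequence. Members were the protein-coding genes of the GENCODE annotation whose symbol begins with EIF1 to EIF6 or with EEF1 or EEF2, which gave 71 of the 60609 genes counted. They were compared between K562 cells treated with 10 μM FT671, a compound that inhibits the ubiquitin-removing enzyme USP7, for 48 h and K562 cells given the vehicle DMSO for the same time, with 3 RNA-seq libraries in each group. K562 is an established erythroleukemia line derived from chronic myeloid leukemia in blast crisis, so the data describe a single cell line. The libraries were made from total RNA after removal of ribosomal RNA, so they report transcript levels and not protein or translation. Of the 71 members, 63 had enough counts to be tested and 8 did not.

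In initiation, eIF2 carries the initiator tRNA as a complex with GTP, and eIF2B reloads eIF2 with GTP after each round. The eIF2 kinases phosphorylate eIF2 under stress, which blocks eIF2B. eIF3 is a large scaffold on the small ribosomal subunit, eIF1, eIF1A and eIF5 control the choice of the start codon, and eIF4F (the cap-binding eIF4E, the helicase eIF4A and the scaffold eIF4G) recruits the mRNA, with eIF4E-binding proteins holding eIF4E back. eIF5B joins the large subunit, while eIF6 keeps free large subunits apart. In elongation, eEF1A delivers aminoacyl-tRNA, eEF1B recharges it with GTP, eIF5A helps at slow peptide bonds and eEF2 translocates the ribosome.

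After FT671, transcripts of 33 of the 63 tested members rose and those of 9 fell in edgeR's quasi-likelihood test at an adjusted p below 0.05, while 21 passed in neither direction. The risers were 52.4% of the tested members, against 23.6% of all 13895 genes tested, and the fallers were 14.3% against 26.5%. The median log2 fold change of the members was 0.28, beside -0.01 over all genes tested. In these bulk samples a change in all cells and a change in the share of cells of some kind cannot be told apart, nor can fewer cells of a type and less RNA per cell. In 34 members (54.0%) every FT671 library lay above every DMSO library, which held for 26.8% of all genes, and in 9 members (14.3%) every FT671 library lay below, which held for 30.3% of all genes.

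The 9 members that fell came from 6 of the 10 groups by role. They were EIF1 in start codon selection, EIF3A and EIF3B in eIF3, EIF4B and EIF4G2 among the eIF4 factors, EIF4EBP2 and EIF4ENIF1 among the proteins that bind eIF4E, the kinase gene EIF2AK3, and EIF1AD, an eIF1A-like nuclear protein. No member of eIF2 and eIF2B, of the elongation factors, or of the subunit joining pair fell. The study's methods use an adjusted p below 1e-05 with DESeq2. At that threshold in edgeR, 4 members were higher (6.35%, against 1.79% of all genes) and 2 were lower (3.17%, against 4.13%). The higher ones were EIF4A2, EEF1A2, EIF2B3 and EIF3I, and the lower ones were EIF1 and EIF3A. With DESeq2's Wald test 15 were higher and 4 lower at 1e-05. The strict edgeR counts also moved with single libraries, from 1 higher without FT671 replicate 3 and 2 without FT671 replicate 2 to 15 higher without DMSO replicate 3. The lower count was 4 without DMSO replicate 3 and 0 without any one of the other libraries. Shares of all genes are not given for these other fits.

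**Figure D1:**
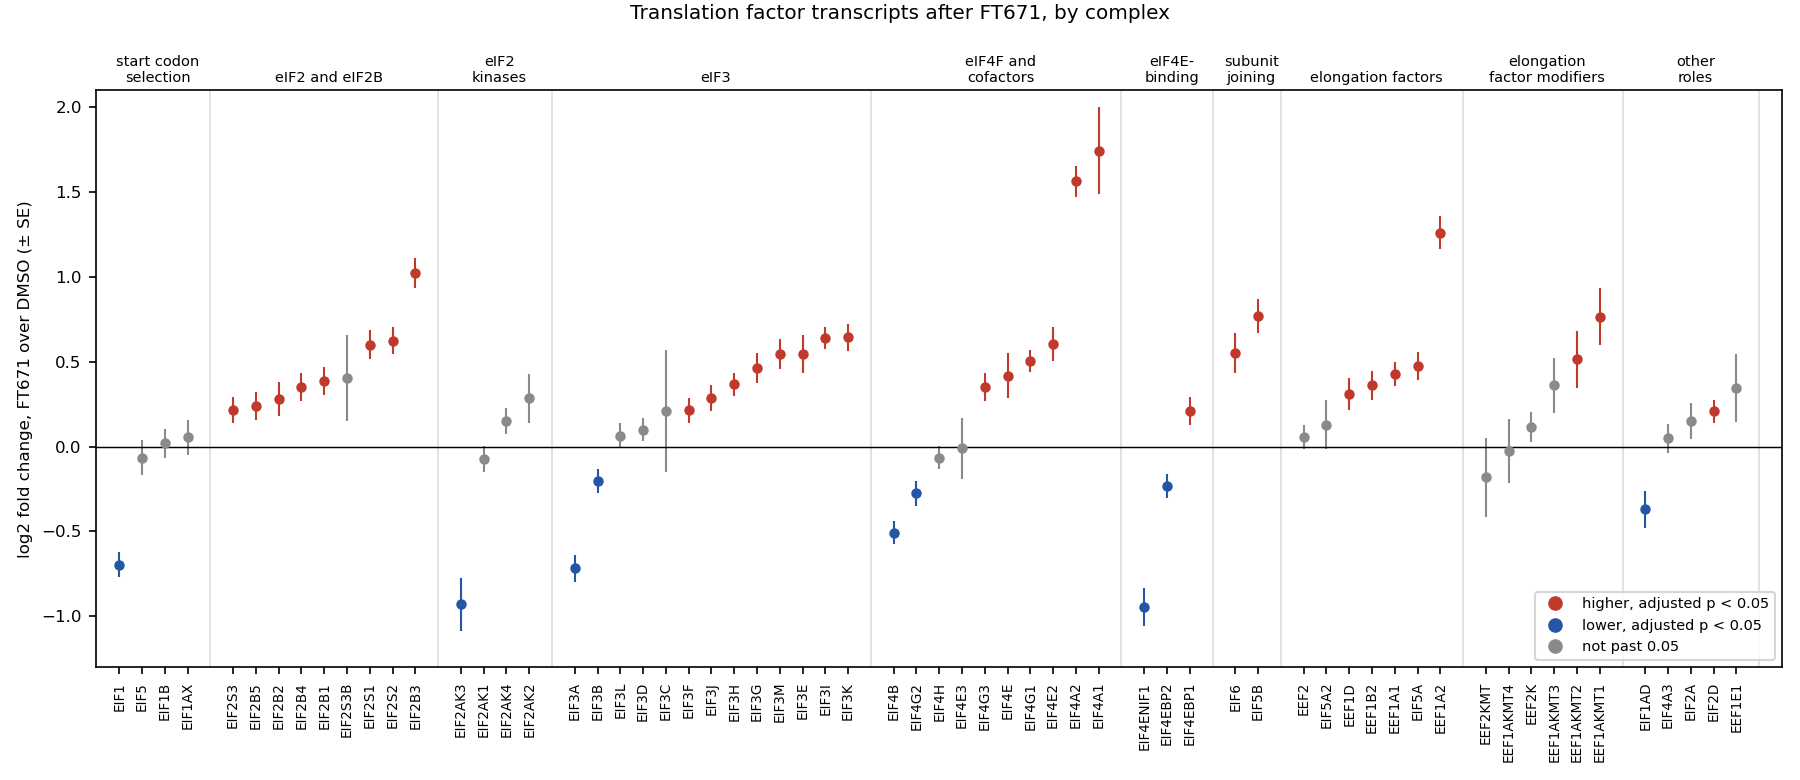
Log2 fold change (FT671 over DMSO) with its standard error for the 63 tested members, grouped by role and sorted within each role. Red points rose and blue points fell at an adjusted p below 0.05, and grey points did not pass. The blue points lie in 6 of the 10 groups, while eIF2 and eIF2B, subunit joining and both elongation groups have none.

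Many mRNAs for the translation machinery begin with a pyrimidine tract right at the cap, a feature known to tie their translation to growth signals, so the annotated starts are shown first. RefSeq promoter sequences (GRCh38.p14) were matched for 57 of the 71 members. Each line gives 20 bases before the annotated start and the first 20 bases of the first exon, 5′ to 3′ on the gene's strand, and capitals mark a C followed by 6 or more C or T within 20 bases of the start. The elongation factors EEF1A1 and EEF2 are shown for a tract that begins exactly at the start. EIF3F, EIF3K and EIF2S3 are shown as members that rose, and EIF1, EIF4B, EIF3B and EIF4G2 as the members with a tract that fell. EIF4A2 is a strong riser whose run of C and T, which begins at the start, is too short to be marked.
EEF1A1, chr6:73521013-73521052, minus strand: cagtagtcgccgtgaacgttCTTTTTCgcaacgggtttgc
EEF2, chr19:3985444-3985483, minus strand: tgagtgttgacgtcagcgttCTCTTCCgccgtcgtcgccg
EIF3F, chr11:7987317-7987356, plus strand: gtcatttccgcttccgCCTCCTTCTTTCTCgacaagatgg
EIF3K, chr19:38619168-38619207, plus strand: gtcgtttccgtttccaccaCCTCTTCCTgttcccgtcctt
EIF2S3, chrX:24054936-24054975, plus strand: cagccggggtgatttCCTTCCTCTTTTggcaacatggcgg
EIF1, chr17:41688865-41688904, plus strand: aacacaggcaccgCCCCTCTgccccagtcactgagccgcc
EIF4B, chr12:53006436-53006475, plus strand: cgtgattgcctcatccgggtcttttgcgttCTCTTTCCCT
EIF3B, chr7:2354807-2354846, plus strand: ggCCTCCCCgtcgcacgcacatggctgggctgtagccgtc
EIF4G2, chr11:10807977-10808016, minus strand: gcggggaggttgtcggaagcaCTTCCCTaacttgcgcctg
EIF4A2, chr3:186783557-186783596, plus strand: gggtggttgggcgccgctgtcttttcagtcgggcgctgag

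The window reaches to both sides of the RefSeq start, so some tracts, such as those of EIF1 and EIF3B, lie before it and outside the mRNA that begins there. The GENCODE span of EIF3B begins further upstream, so its tract lies inside that span. A marked tract stood in 22 of the 57 members (38.6%) and in 5450 of all 27305 promoters in the table, or in 19.6% of the promoters of tested genes. It was found in 10 of the 25 matched members that rose, in 4 of the 8 that fell and in 6 of the 17 that passed in neither direction. The median log2 fold change was 0.21 for tested members with a tract and 0.32 for those without. Marked tracts therefore occurred on both sides, in risers such as EIF3K and in fallers such as EIF4B. Counting the first base of the exon as 1, the faller tracts began at -7 (EIF1), -18 (EIF3B), 2 (EIF4G2) and 11 (EIF4B). None of these began exactly at the start, and among the risers only that of EEF1A1 did.

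The E-box CACGTG, which reads the same on both strands and is the classic binding sequence of MYC and related factors, was searched from 250 bases before to 50 bases after the start. It was present in 15 of the 57 members (26.3%), in 10.5% of the promoters of tested genes and in 7.43% of all promoters. EEF1AKMT4 and its readthrough gene share the same promoter window, which holds 2 sites, and are counted as 2 of the 15. By call, 5 of the 25 risers, 1 of the 8 fallers and 7 of the 17 others held it. The risers EIF2B3, EIF3K and EIF4G1 and the faller EIF4B are shown with 10 bases on either side of the site, which is in capitals. In each of them the site shown lies before the RefSeq start used here. The GENCODE spans of EIF4B and EIF3K begin further upstream, so there the site lies inside the gene span. EIF4G1 holds 2 sites, of which only the first is shown.
EIF2B3, chr1:44986759-44986784, minus strand: cagagggacaCACGTGtcgaatgctc
EIF3K, chr19:38619075-38619100, plus strand: aggaagaagtCACGTGgcagccggaa
EIF4G1, chr3:184314452-184314477, plus strand: ctgtggctgtCACGTGacggggcggg
EIF4B, chr12:53006424-53006449, plus strand: ccgctataatCACGTGattgcctcat
The median log2 fold change was 0.13 for tested members with the E-box and 0.28 for those without. The transcript of MYC itself fell from 358 ± 16.8 to 241 ± 5.64 CPM (the count scaled by library size, SD, n = 3 in each group), a log2 fold change of -0.57 with an edgeR adjusted p of 1.22e-05. A match in these windows is a run of letters and no measurement of binding.

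**Figure D2:**
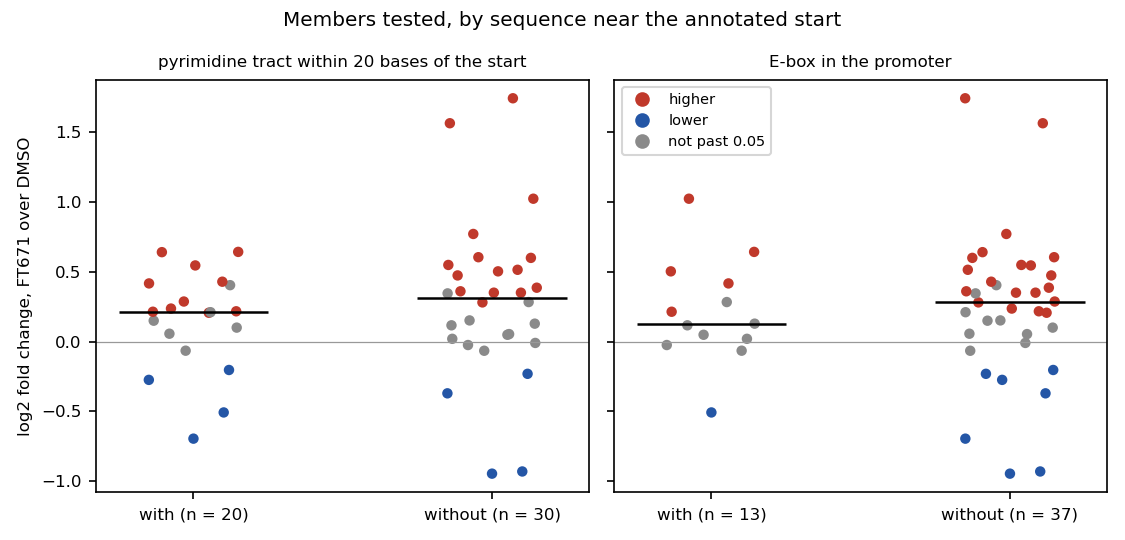
Log2 fold change of the tested members with a matched promoter, split by a pyrimidine tract within 20 bases of the annotated start on either side (left) and by the E-box CACGTG (right). Each point is a gene, coloured by its call, and horizontal lines are medians, 0.21 with and 0.32 without a tract, and 0.13 with and 0.28 without an E-box. Risers and fallers lie in every column.

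Library totals ranged from 5320245 to 14250500 counts in DMSO and from 4555220 to 11437804 in FT671, so 3 counts corresponded to between 0.208 and 0.666 CPM. USP7 mRNA, the gene of the drug's target, fell from 119 ± 12.3 to 33.1 ± 3.38 CPM. Of 9 erythroid marker genes, 8 had more than 3 counts in all libraries (HBE1 did not), and 3 of them rose while 4 fell. The summed erythroid markers were at 648 to 755 CPM in DMSO and 603 to 661 CPM in FT671. Of 5 lymphoid or monocyte markers, MS4A1 was at 0 and CD14 and CD3E were at or near 0 in every library, while LYZ rose, which took the sum from between 54.7 and 56.7 CPM to between 75.6 and 78.5 CPM. The part of either list in the results was not tested.

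Adding the members up, they took 2.4% ± 0.045 of all counts in DMSO and 2.58% ± 0.0246 in FT671 (SD, n = 3). EEF2 alone made up 46.0% ± 1.71 of the members' counts in DMSO and 43.5% ± 1.11 in FT671. Per kilobase of the canonical transcript, EEF2 had the highest DMSO level of the members at 3466 CPM per kb, followed by EIF1 at 556, EIF3K at 507 and EIF3I at 325, and EIF4E3 had the lowest of those tested at 0.603. After FT671 EIF3K stood at 793 CPM per kb, EIF3I at 507, EIF3G at 425 and EEF1B2 at 413, all above EIF1 at 344. These shares and levels rest on assigned reads alone. Genes that share reads with copies or readthrough genes, such as EEF1A1, EIF4A1, EIF3C and EEF1G, can stand too low in this order.

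EIF1, the small factor that keeps the scanning ribosome open until it meets a start codon, was the fall with the highest starting level. It stood at 1316, 1393 and 1188 CPM in the DMSO libraries and at 831, 778 and 800 CPM in the FT671 libraries. The groups did not overlap, and the lowest DMSO library was far above the highest FT671 library. The log2 fold change was -0.69 ± 0.0739 (SE), with an edgeR adjusted p of 4.59e-06. The other tested members of the group passed in neither direction. EIF1B, a close paralog of EIF1, had 163, 184 and 155 CPM in DMSO and 153, 176 and 179 CPM in FT671, and its groups overlapped. EIF1AX, which encodes eIF1A, had a log2 fold change of 0.05 ± 0.104, and EIF5, which triggers GTP hydrolysis on eIF2, had -0.06 ± 0.103. EIF1AY was not tested.

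Within each library the ratio of EIF1 to EIF1B fell by 0.71 on the log2 scale (exact permutation test, two-sided, p = 0.1, the smallest that 3 against 3 libraries can give, adjusted p = 0.233 over 7 paralog pairs).

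The genes of eIF2 and eIF2B rose together. Of their 9 members 8 passed as higher and none as lower, and the group median was 0.39 (log2 fold change). EIF2B3, the gamma subunit of the catalytic part of eIF2B, had the largest rise, from 79.1, 73.6 and 78.4 CPM in DMSO to 138, 156 and 174 CPM in FT671. Its FT671 libraries all lay well above the DMSO libraries and were more spread among themselves. Its log2 fold change was 1.02 ± 0.0892 (adjusted p = 7.6e-07). The genes of eIF2 itself rose by different amounts. EIF2S1, the alpha subunit that the kinases phosphorylate, had 119, 129 and 147 CPM in DMSO and 192, 193 and 211 CPM in FT671, and EIF2S2, the beta subunit, went from a mean of 103 ± 7.65 to 158 ± 8.53 CPM. EIF2S3, the GTP-binding gamma subunit and the most abundant of the group in CPM, had 582, 615 and 687 CPM in DMSO and 693, 724 and 771 CPM in FT671. Its groups came within a few CPM of each other, its log2 fold change was 0.22 ± 0.0770 (adjusted p = 0.0295), and the call was lost in 6 of 18 alternative settings, among them the fits without DMSO replicate 1, DMSO replicate 2, FT671 replicate 2 or FT671 replicate 3. The other eIF2B subunits, EIF2B1, EIF2B2, EIF2B4 and EIF2B5, rose with log2 fold changes between 0.24 and 0.39. The call of EIF2B2 was lost without DMSO replicate 1, FT671 replicate 2 or FT671 replicate 3, and that of EIF2B5 without DMSO replicate 1 or any 1 FT671 library. EIF2S3B, a near-copy of EIF2S3 with about 3 to 4 CPM, did not pass, and reads shared between the copies make both values uncertain.

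Among the 4 kinases that phosphorylate eIF2, EIF2AK3 fell and the others passed in neither direction. EIF2AK3 encodes PERK, the sensor of unfolded proteins in the endoplasmic reticulum. Its level was low, at 14.1, 16.1 and 18.1 CPM in DMSO and 8.88, 7.22 and 8.67 CPM in FT671. The groups did not overlap, and the log2 fold change was -0.93 ± 0.155 (adjusted p = 2.22e-04). EIF2AK1, the heme-regulated kinase prominent in erythroid cells, was the most abundant of them in CPM, with 528, 560 and 598 CPM in DMSO and 492, 536 and 573 CPM in FT671. Its groups overlapped and its log2 fold change was -0.07 ± 0.0766. EIF2AK2, the double-stranded RNA sensor PKR, had 56.4, 56.6 and 84.5 CPM in DMSO and 66.0, 83.5 and 85.2 CPM in FT671, with DMSO replicate 3 among the FT671 values. Its log2 fold change of 0.28 ± 0.143 passed without that library and after the exon length or GC correction. EIF2AK4, the amino acid sensor GCN2, had a log2 fold change of 0.15 ± 0.0771 and also passed without DMSO replicate 3 and after either correction.

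eIF3 was divided. Of its 13 tested subunits 8 rose, 2 fell and 3 passed in neither direction, with a median log2 fold change of 0.29. The 2 that fell encode eIF3a, the largest subunit, and eIF3b, the pair around which the complex is nucleated. EIF3A had 482, 482 and 576 CPM in DMSO and 306, 309 and 320 CPM in FT671. The FT671 libraries were tightly grouped and all far below the DMSO libraries, with a log2 fold change of -0.72 ± 0.0797 (adjusted p = 6.68e-06). EIF3B had 400, 401 and 383 CPM in DMSO and 367, 336 and 328 CPM in FT671. Its groups did not overlap but lay close together, and the log2 fold change was -0.20 ± 0.0695 (adjusted p = 0.0255). The EIF3B call was lost in 8 of 18 alternative settings, among them the fits without DMSO replicate 1, DMSO replicate 2, FT671 replicate 2 or FT671 replicate 3.

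The largest rises in eIF3 were in smaller subunits. EIF3K had 400, 427 and 346 CPM in DMSO and 630, 611 and 596 CPM in FT671 (log2 fold change 0.64 ± 0.0795). EIF3I, a partner of eIF3b and eIF3g, had 463, 478 and 442 CPM in DMSO and 715, 739 and 707 CPM in FT671 (0.64 ± 0.0660, adjusted p = 3.46e-06). Both were separated clearly from DMSO in every library. EIF3E, EIF3G, EIF3H, EIF3M, EIF3J and EIF3F rose with log2 fold changes between 0.21 and 0.55, and EIF3D and EIF3L had 0.10 ± 0.0655 and 0.06 ± 0.0739 without passing, although EIF3D passed after the GC correction. The call of EIF3F was lost without DMSO replicate 1, FT671 replicate 1 or FT671 replicate 3, and that of EIF3J without FT671 replicate 3.

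As a share of all eIF3 counts, EIF3A went from 11.2%, 11.1% and 13% in the DMSO libraries to 5.88%, 5.83% and 5.97% in the FT671 libraries. EIF3B went from 9.09% ± 0.369 to 6.5% ± 0.486 (SD, n = 3). The EIF3A share is a value within each library, so it does not depend on how the libraries were scaled. EIF3C had only between 1.85 and 8.88 CPM in single libraries, and EIF3CL, its near-identical copy, was not tested. Reads that match both copies cannot be assigned to either, so neither level is a measure of the eIF3c subunit.

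**Figure D3:**
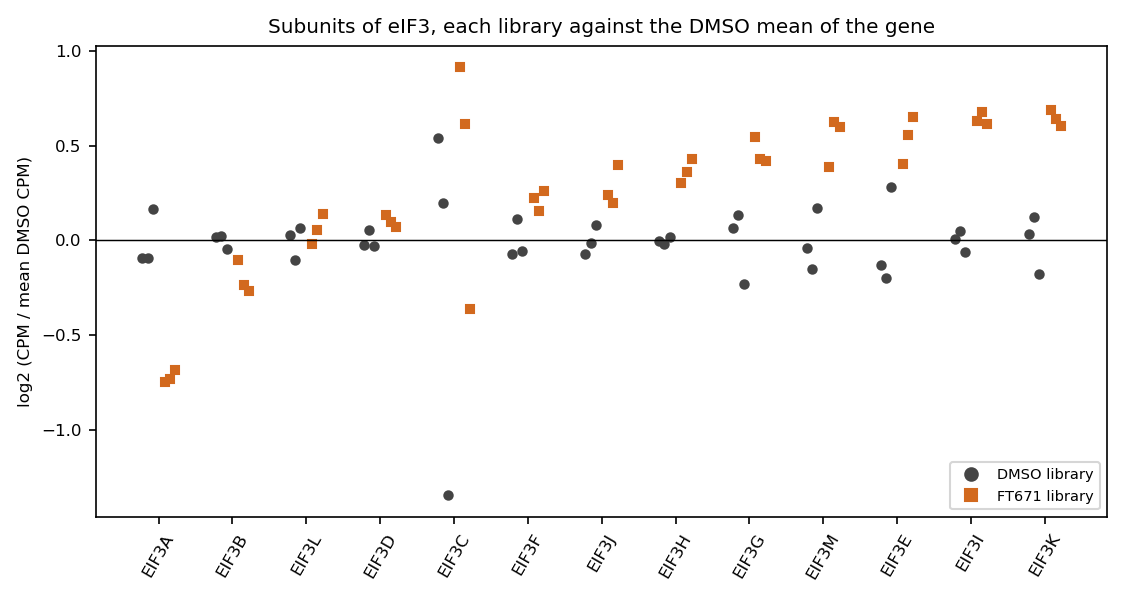
Expression of the 13 tested eIF3 subunits in each library as log2 of CPM over the gene's mean DMSO CPM, sorted by fold change. Grey circles are DMSO libraries and orange squares FT671 libraries. EIF3A lies below 0 in all FT671 libraries and EIF3B slightly below, most others lie above, and EIF3C, with few assignable reads, is widely scattered.

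The eIF4 factors held the largest rises of the members. Of 10 tested, 6 rose and 2 fell, with a median log2 fold change of 0.38. EIF4A2, one of the paralogous cap-complex helicases, had 149, 156 and 186 CPM in DMSO and 443, 481 and 520 CPM in FT671. Every FT671 library was above the highest DMSO library by more than the whole DMSO range, and the log2 fold change was 1.57 ± 0.0913 (adjusted p = 3.21e-08). Its share of the assigned counts of eIF4A, eIF4E, eIF4G, eIF4B and eIF4H genes went from 7.23% ± 0.577 to 18.0% ± 1.27. That total holds very few reads of EIF4A1, whose level is uncertain, so the share does not compare EIF4A2 with EIF4A1. EIF4A2 lies at chr3:186783205-186789897 (hg38, plus strand). It overlaps RFC4 on the opposite strand, which had a log2 fold change of -0.13. A lncRNA (ENSG00000263826) on the opposite strand also overlaps it and rose with a log2 fold change of 1.15 (adjusted p = 1.74e-04). The lncRNA had far fewer counts than EIF4A2, and its part in the value was not tested.

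EIF4A1 had a fitted log2 fold change of 1.75 ± 0.256 (adjusted p = 7.54e-05), but from very few reads, with 19, 13 and 7 counts in DMSO and 18, 25 and 48 counts in FT671. These are 1.32, 1.19 and 1.29 CPM against 3.998, 4.51 and 4.29 CPM, and the groups did not overlap. The gene lies inside the readthrough gene SENP3-EIF4A1 on the same strand. Reads that fit both genes may not have been assigned to EIF4A1, so its level is uncertain and no comparison of abundance with EIF4A2 was made from it. The ratio of EIF4A1 to EIF4A2 differed by 0.15 on the log2 scale (exact permutation p = 0.2) and had the opposite sign with a pseudocount of 5 counts.

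EIF4G1, the main scaffold of eIF4F, had the most assigned reads of the group and rose from 647, 682 and 694 CPM to 976, 942 and 951 CPM (log2 fold change 0.50 ± 0.0652, adjusted p = 2.57e-05). Its paralog EIF4G3 rose from 105, 100 and 115 CPM to 132, 129 and 145 CPM (0.35 ± 0.0809). Both were higher in all FT671 libraries. EIF4G2, also called DAP5, lacks the part of eIF4G that binds eIF4E and moved the other way. It had 542, 546 and 614 CPM in DMSO and 484, 441 and 482 CPM in FT671, with groups that did not overlap and a log2 fold change of -0.27 ± 0.0739 (adjusted p = 0.007). That call was lost without FT671 replicate 2 and after a correction for exon length.

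EIF4B, the cofactor that stimulates the eIF4A helicase, fell from 409, 444 and 446 CPM to 308, 305 and 301 CPM. The FT671 libraries lay within a few CPM of each other and well below the lowest DMSO library, and the log2 fold change was -0.51 ± 0.0674 (adjusted p = 3.28e-05). EIF4H, a related cofactor, did not pass (-0.06 ± 0.0693). The cap-binding gene EIF4E had 20.1, 18.3 and 22.9 CPM in DMSO and 22.2, 26.7 and 30.5 CPM in FT671. Its groups overlapped, and its log2 fold change of 0.42 ± 0.133 (adjusted p = 0.0174) lost the call without DMSO replicate 1, DMSO replicate 2 or FT671 replicate 3. EIF4E2, a cap-binding paralog linked to mRNA silencing, rose from 41.6, 50.6 and 40.7 CPM to 67.7, 64.4 and 70.4 CPM without overlap (0.61 ± 0.102, adjusted p = 2.39e-04).

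**Figure D4:**
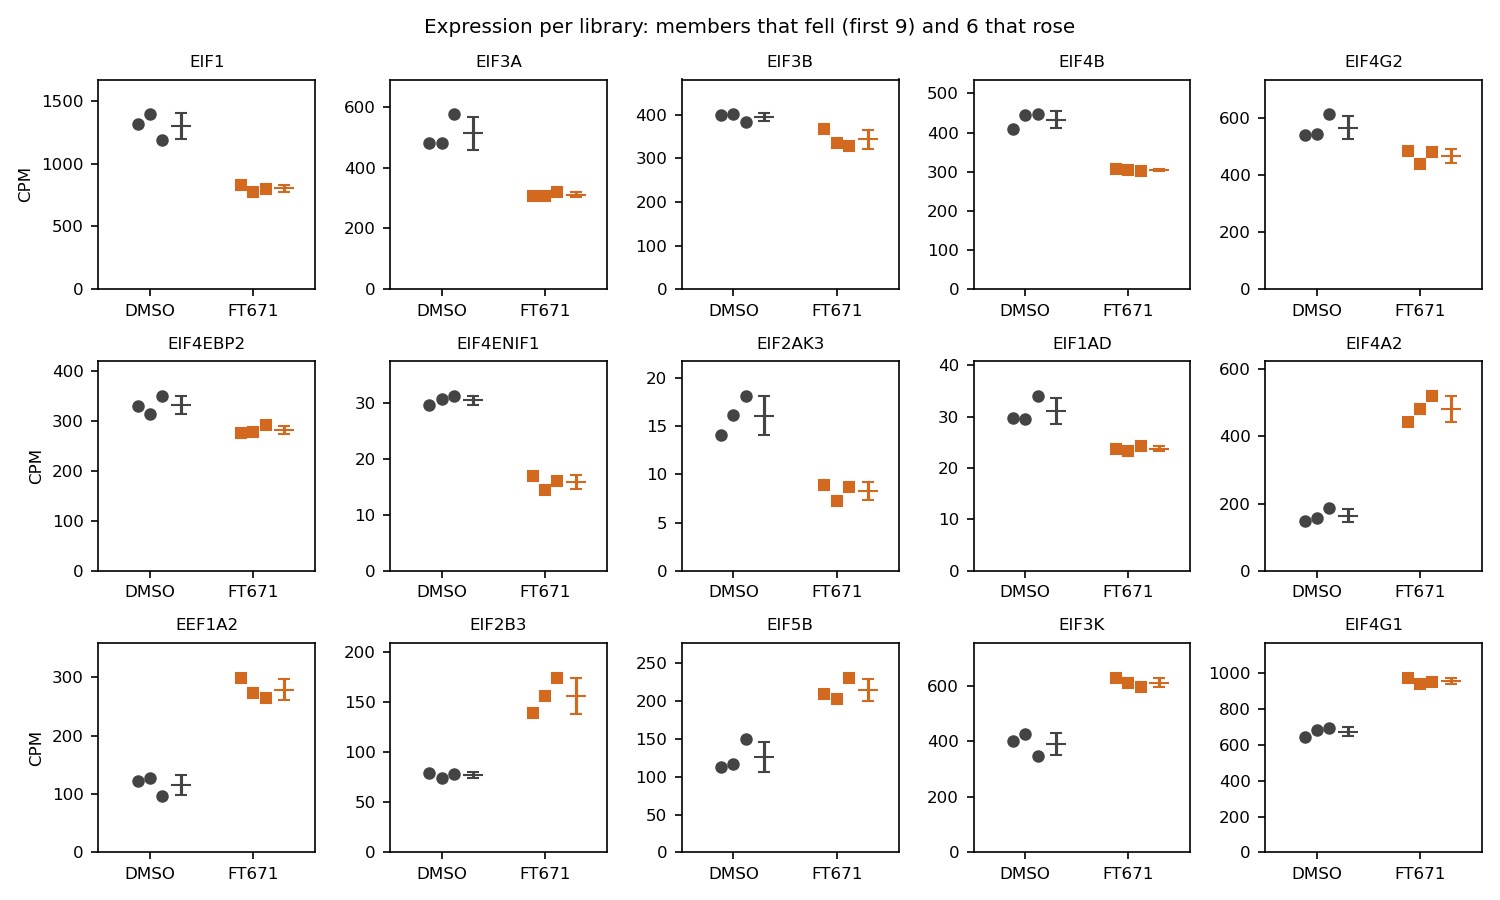
CPM in each library for the 9 members that fell and for 6 members that rose, with the mean and SD of each group beside the points (n = 3). Every vertical axis starts at 0. DMSO and FT671 libraries do not overlap in any panel, with the narrowest gaps in EIF3B and EIF4EBP2 and the widest relative gap in EIF4A2.

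The genes of the eIF4E-binding proteins split. EIF4ENIF1, also known as 4E-T, carries eIF4E into the nucleus and into processing bodies. It fell from 29.6, 30.7 and 31.2 CPM to 16.9, 14.4 and 16.1 CPM, with groups that were far apart and a log2 fold change of -0.95 ± 0.111 (adjusted p = 1.09e-05), the lowest of all tested members. EIF4EBP2 fell from 329, 314 and 350 CPM to 275, 278 and 292 CPM (-0.23 ± 0.0696, adjusted p = 0.0134), a call lost without FT671 replicate 1 or FT671 replicate 2 and after the exon length correction. EIF4EBP1, the form known best as a target of mTOR, had 244, 236 and 198 CPM in DMSO and 275, 258 and 256 CPM in FT671. Those groups did not overlap, but the log2 fold change of 0.21 ± 0.0831 (adjusted p = 0.0471) was just past the threshold and lost its call without DMSO replicate 3 or without any 1 of the FT671 libraries. The ratio of EIF4EBP1 to EIF4EBP2 rose by 0.45 on the log2 scale without overlap between the groups (exact permutation p = 0.1, adjusted p = 0.233).

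EIF5B and EIF6, grouped here under subunit joining, both rose, although eIF6 keeps free large subunits apart. EIF5B, the GTPase that joins the large ribosomal subunit, had 113, 117 and 149 CPM in DMSO and 209, 202 and 230 CPM in FT671. The highest DMSO library was well below the lowest FT671 library, and the log2 fold change was 0.77 ± 0.0997 (adjusted p = 2.53e-05). EIF6 rose from 70.9, 84.5 and 55.8 CPM to 111, 104 and 98.4 CPM, again without overlap (0.55 ± 0.118, adjusted p = 0.00154).

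Of 7 tested elongation factor genes 5 rose and none fell, with a median log2 fold change of 0.36. EEF1A2, the eEF1A form of muscle and neurons that is also expressed in many tumors, had 122, 128 and 95.9 CPM in DMSO and 299, 272 and 264 CPM in FT671. Every FT671 library had more than double the highest DMSO level, and the log2 fold change was 1.26 ± 0.0976 (adjusted p = 2.5e-07). EEF1A1, the widespread form, rose from 434, 386 and 402 CPM to 567, 542 and 539 CPM (0.43 ± 0.0696, adjusted p = 1.75e-04). EEF1A2 made up 21.9%, 24.9% and 19.3% of the counts of the pair in the DMSO libraries and 34.5%, 33.4% and 32.9% in the FT671 libraries, with no overlap. The log2 ratio of EEF1A1 to EEF1A2 fell by 0.85 (exact permutation p = 0.1, adjusted p = 0.233). EEF1A1 has many processed pseudogenes, and reads that match them are a limit on its level.

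EEF2 had 11108, 11555 and 10171 CPM in DMSO and 11763, 11302 and 11101 CPM in FT671. Its groups overlapped, and the log2 fold change of 0.06 ± 0.0725 (adjusted p = 0.533) was the lowest of the group. EIF5A rose from 262, 291 and 235 CPM to 390, 348 and 360 CPM (0.48 ± 0.0832, adjusted p = 3.3e-04), while its paralog EIF5A2, at 12.95, 14.3 and 17.4 CPM in DMSO and 16.7, 17.3 and 14.4 CPM in FT671, overlapped between groups (0.13 ± 0.145). EEF1B2 and EEF1D, which encode nucleotide exchange subunits of eEF1B, rose by 0.36 ± 0.0847 and 0.31 ± 0.0936. EEF1G, the remaining subunit of that complex, had 0 counts in every library. It overlaps an annotated readthrough gene on the same strand, so this value cannot be read as absence of the transcript.

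The remaining paralog ratios did not separate the groups. EIF4E to EIF4E2 differed by -0.25 (exact permutation p = 0.4), EIF4G1 to EIF4G3 by 0.16 (p = 0.2) and EIF5A to EIF5A2 by 0.36 (p = 0.3), all as exact two-sided permutation tests on log2 ratios. With 3 libraries against 3 none of the 7 pairs could reach 0.05.

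Of the 6 tested genes that modify elongation factors 2 rose. EEF1AKMT1, a lysine methyltransferase of eEF1A, had 5.12, 4.85 and 5.18 CPM in DMSO and 8.44, 8.30 and 8.85 CPM in FT671 (log2 fold change 0.77 ± 0.168, adjusted p = 0.00176). Its groups did not overlap. EEF1AKMT2 had a log2 fold change of 0.52 ± 0.169 (adjusted p = 0.0208), a call lost without DMSO replicate 1, DMSO replicate 2 or FT671 replicate 2. EEF2K, the kinase that switches eEF2 off, was the most abundant of the group in CPM and did not pass, with 60.04, 65.9 and 69.3 CPM in DMSO and 74.2, 69.6 and 67.7 CPM in FT671, although it passed as higher after the exon length correction. EEF2KMT, the methyltransferase of eEF2, had the lowest log2 fold change of the group, -0.18 ± 0.232, and did not pass.

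Members with other roles moved little. EIF1AD fell from 29.7, 29.5 and 34.0 CPM to 23.8, 23.3 and 24.3 CPM without overlap (-0.37 ± 0.107, adjusted p = 0.0105). EIF2D, a factor of non-canonical initiation and recycling, rose by 0.21 ± 0.0681 (adjusted p = 0.0207), a call lost without DMSO replicate 1, FT671 replicate 2 or FT671 replicate 3. EIF2A, which can bring initiator tRNA to the ribosome without eIF2, had 213, 213 and 267 CPM in DMSO and 218, 258 and 286 CPM in FT671, with overlap (0.15 ± 0.106), and passed as higher without DMSO replicate 3 and after the exon length correction. EIF4A3, a helicase of the exon junction complex, had a log2 fold change of 0.05 ± 0.0842. EEF1E1, a scaffold protein of the aminoacyl-tRNA synthetase complex, had the highest of these genes at 0.35 ± 0.201 and did not pass.

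Calls for 29 of the 42 members that rose or fell (23 higher, 6 lower) were the same in all 18 alternative settings. The 6 lower ones were EIF1, EIF2AK3, EIF3A, EIF4B, EIF4ENIF1 and EIF1AD. Several members lie across neighbouring genes, since 33 overlap another protein-coding gene and 11 overlap one on the same strand. Overlap was taken over whole gene spans, introns included, so shared exons or reads were not measured. For the fallers, EIF3B overlaps SNX8 (log2 fold change -0.87), EIF4B overlaps TNS2-AS1 (-0.54), EIF4G2 overlaps CTR9 (-0.21), EIF4ENIF1 overlaps DRG1 (0.40) and EIF2AK3 overlaps a lncRNA, ENSG00000225420 (-1.49, from 5.94 to 1.95 CPM), all on the opposite strand. Whether the counting used strand is not given in the sources used here, and the part of these neighbours in the values was not tested.

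The 8 members without a test had too few assigned reads. EEF1G and the readthrough genes EEF1AKMT4-ECE2 and EEF1E1-BLOC1S5 had 0 counts, EIF1AY is only named, EIF4E1B had 1 count in all, and EIF3CL, EIF4EBP3 and EIF5AL1 had between 0 and 17 counts in a library. The 3 counts that a count of 0 allows correspond to between 0.208 and 0.666 CPM in these libraries, for counting error alone.

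Beside the members, 45 of 46 genes on 4 lists of other translation genes were tested, of which 17 rose and 8 fell, beside 23.6% higher and 26.5% lower over all genes tested. Factors of mitochondrial translation, which serve a separate ribosome, rose most often, with 8 of 10 higher and 1 lower, and their median was 0.41 (log2 fold change). GFM1, the mitochondrial counterpart of eEF2, rose by 0.73 ± 0.0759 and MTRF1L, a mitochondrial release factor, by 0.69 ± 0.130, while the rescue factor MTRFR fell by 0.82 on the log2 scale. Of 9 enzymes that make hypusine on eIF5A or diphthamide on eEF2, 4 rose, led by DPH2 (0.44 ± 0.102) and DNAJC24 (0.36 ± 0.137). DOHH, the hydroxylase that completes hypusine, fell by 0.51 on the log2 scale. The groups overlapped for DNAJC24 and for DOHH.

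Of 8 genes of termination, recycling and rescue, MCTS1 rose (0.23 ± 0.0801), and ETF1, the gene of the release factor eRF1, and HBS1L, a rescue factor for stalled ribosomes, fell by 0.47 and 0.90 on the log2 scale. Of 18 tested poly(A)-binding proteins and initiation regulators 4 rose and 4 fell, close to the shares over all genes. PAIP2, an inhibitor of poly(A)-binding protein, rose by 0.59 ± 0.0863 and BZW2, an eIF5-like regulator, by 0.49 ± 0.0692. The helicase gene DDX3X, which acts on structured mRNA leaders, fell by 1.29, from 154, 145 and 185 CPM to 64.0, 68.0 and 65.6 CPM (adjusted p = 1.8e-07), and MKNK2, a kinase that phosphorylates eIF4E, fell by 0.89 on the log2 scale.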

How the data were processed

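RNA-seq of K562 cells (3 DMSO and 3 FT671 libraries, described by the study as independent experiments) was aligned by the authors to hg38 with STAR, and the deposited files hold raw counts per gene. The STAR version, annotation release and strand setting are not given in the sources used here. The histone ChIP-seq samples are not analysed here. Of 60609 gene identifiers, 60295 matched GENCODE release 44. STAR's gene counting leaves out reads that fit several places or genes, which lowers genes with near-identical copies or readthrough partners.

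Counts were tested with edgeR 4.0.16 (quasi-likelihood test, filterByExpr, TMM normalization, no covariates, Benjamini-Hochberg adjustment over 13895 genes, biological coefficient of variation 0.0832). SE is the log2 fold change divided by the square root of F. The fit was tested on simulated data. CPM used TMM effective library sizes (total counts 4555220 to 14250500). Paralog ratios used a pseudocount of 0.5 and exact permutation tests (SciPy 1.17.1). The same edgeR and DESeq2 1.42.0 (R 4.3.3) served the alternatives. These covered scaling, low-count filters, exon length and GC corrections, replicate blocks and leaving out each library. The study's methods name DESeq2 with an adjusted p of 1e-05.

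Members, complexes and lists were chosen with earlier results of these data known. Values per library are given for every member that fell, for the most abundant member and those with the highest and lowest log2 fold change in each group, and for the paralog pairs. Other members were named after their values were seen. From other lists the 2 highest and 2 lowest past 0.05 are named, with USP7 and MYC.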

Additional observations from a re-analysis of the deposited data

How the results depend on the processing

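The counts of members at an adjusted p below 0.05 stayed within 1.5 times 33 higher and 9 lower in all 18 alternatives, with leave-one-out ranges of 25 to 36 and 6 to 9. At 1e-05 the count of higher members (4 as reported) was 15 with DESeq2's Wald test, 16 with no filter on low counts, 11 with exon length correction, 15 with GC correction and 1 to 15 with 1 library left out. The count of lower members (2 as reported) was 4, 5 and 4 with DESeq2's Wald test, no filter and GC correction, and 0 to 4 with 1 library left out. Shares of all genes past either threshold are not given for the alternatives, replicate blocks included. The member counts there cannot be set against such a share. The median of the members (0.28) became 0.32 with exon length correction and 0.22 to 0.30 with 1 library left out. The eIF3 median (0.29) became 0.39 with the Wald test, 0.34 with length and 0.24 with GC correction, and 0.29 to 0.36 with 1 library left out. The eIF4F median became 0.48 with length correction, and the eIF4E-binding median (-0.23) became -0.12. The latter was -0.0482 without a filter and 0.0042 without FT671 replicate 2 (range -0.26 to 0.0042), where the low EIF4EBP3 entered the group, which then held 4 genes. With 1 library left out the eIF2 and eIF2B median ranged from 0.32 to 0.43 and that of the elongation factors from 0.25 to 0.40. The 0.25 came without DMSO replicate 3, where the low EIF5AL1 entered the elongation factors, which then held 8 genes. The EIF4A1 to EIF4A2 ratio was -0.0828 with a pseudocount of 5. EIF4A1 was not tested where at least 10 counts in every library were required. Apart from the entry of EIF4EBP3 and EIF5AL1 into their groups, the causes were not tested.

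Samples with the same replicate number showed little common deviation (r = 0.115, -0.0605 and 0.14). FT671 replicate 1 correlated best with DMSO replicate 2 (0.125), and FT671 replicates 2 and 3 best with DMSO replicate 3 (0.0613 and 0.14). With 3 libraries a group these values cannot show whether the numbers mark pairs. The main fit took no pairs, and fits with a replicate block are given beside it. With a replicate block 7 members were higher at 1e-05 and the eIF3 median was 0.36. With the block and a length correction these were 14 and 0.46, with a member median of 0.32 and an eIF4E-binding median of -0.12, and with the block and GC correction 14 and 0.38. At 0.05 the block alone added EIF2AK2 as higher and removed no call. Joined to a correction it also added EIF3C, and with GC correction EEF2, as higher. Depth limits members under about 5 CPM, such as EIF4A1, EIF3C and EIF2S3B, and 3 libraries a group limit the permutation tests.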
